A study of Bos taurus with 8 samples.

Results

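The genes described are the bovine oligoadenylate synthetase genes OAS1X (ENSBTAG00000053807), OAS1Y (ENSBTAG00000039861) and OAS2 (ENSBTAG00000014628). They were found by gene name in the scRNA-seq tables and are 3 of the 21861 genes listed there. Blood from 4 Holstein cattle, lactating females 2 years old, was pooled and then divided into 4 parts. A first part had no LPS, and the others were kept with LPS at 2 µg/ml and 37 °C for 2 h, 4 h or 8 h. LPS (lipopolysaccharide) is the outer membrane component of Gram-negative bacteria. Mononuclear cells were isolated after treatment, and an scRNA-seq and an scATAC-seq library were made from each part. The cells of the 4 animals cannot be told apart, and the time for which the no LPS part was incubated is not given in the sources used here, so LPS and time in incubation cannot be told apart either. With 1 library for each treatment no test between treatments was possible, and all intervals below are 95% intervals that cover counting error only.

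Oligoadenylate synthetases are sensors of double-stranded RNA. When bound to it they join ATP into short 2′-5′-linked oligoadenylates, second messengers that lead to the breakdown of viral and cellular RNA and so to a stop of protein synthesis. The genes are transcribed at a low level in resting leukocytes and are classical targets of type I interferon. Cattle have several copies related to OAS1, named OAS1X, OAS1Y and OAS1Z. In the RefSeq annotation of the ARS-UCD2.0 assembly the genes stand side by side on the same chromosome in the order SLC8B1, OAS2, OAS1Y, OAS1X, OAS1Z and RPH3A, and OAS1Y overlaps OAS2. The counts come from another assembly, ARS-UCD1.2, so no coordinates are given. Reads from near-identical copies or from the overlap can be shared out or dropped in counting, and the part of this in the values below was not tested.

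In what follows, values given in order of time are those of no LPS and then of 2 h, 4 h and 8 h of LPS. The limits on cells left 7821, 9865, 7387 and 3411 cells in order of time. The paper counted fewer cells in each library after its quality control, so its set of cells was not the same. The cells kept here had medians of 3997 to 4757 UMIs (unique molecular identifiers, which count RNA molecules) per cell. Levels are UMIs per 1000000 UMIs of the same cells (CPM). Intervals of levels, folds and shares of UMIs treat UMIs as independent. They are too narrow where the UMIs of a gene gather in few cells. The kit counts the 3′ end of transcripts, so a level is not divided by gene length. Cell classes were gated on raw counts, as cells with a UMI of 1 of CD14, CD3E, MS4A1 and NCR1 and none of the other 3. Markers that were not used in the gates went with the gates' names. The 6 monocyte markers summed to 1130 to 2687 CPM in the CD14 gate and to at most 27.0 CPM in the others. The 5 T cell markers summed to 539 to 611 CPM in the CD3E gate and the 5 B cell markers to 884 to 1179 CPM in the MS4A1 gate. The 6 NK cell markers summed to 895 to 1186 CPM in the NCR1 gate, where the T cell markers also reached 306 to 357 CPM. CD3D, a T cell marker of that list, had only 1, 3, 1 and 0 UMIs there in order of time. In the CD3E gate the B cell markers summed to 109 to 145 CPM and the NK cell markers to 56.8 to 117 CPM. The CD14 gate held 796, 382, 151 and 170 cells in order of time and the NCR1 gate 58, 97, 90 and 38, so their values are the least precise. Over the 6 pairs of libraries, 93 cell barcodes were shared.

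All 3 genes were lowest without LPS and highest at 4 h. In order of time, OAS1X had levels of 6.80, 13.4, 47.3 and 13.1 CPM, from 262, 642, 1898 and 219 UMIs. OAS1Y had 10.0, 15.4, 115 and 17.3 CPM, from 385, 739, 4610 and 288 UMIs. OAS2 was far rarer, with 0.364, 0.648, 5.70 and 1.08 CPM, from 14, 31, 229 and 18 UMIs. Each gene thus stood well above its other 3 levels in the 4 h library alone, and the 2 h and 8 h levels of OAS1X and of OAS1Y lay close together.

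At 4 h against no LPS the fold was 6.95 for OAS1X (6.10 to 7.93), 11.5 for OAS1Y (10.3 to 12.8) and 15.7 for OAS2 (9.16 to 29.1). On the log2(CPM + 1) scale, which understates changes of rare transcripts, the ratios were 2.63, 3.40 and 2.30 in the same order. A gene was called as risen or fallen where this ratio reached 1 in size, among genes with at least 20 UMIs over both libraries. All 3 genes rose at 4 h, when 1.28% of the 12060 genes tested did, and their ranks from the top were 13 for OAS1X, 3 for OAS1Y and 18 for OAS2. None of the 3 was called at 2 h, when 0.938% of genes were, or at 8 h against no LPS, when 0.492% were. The folds at 2 h were 1.97 for OAS1X (1.70 to 2.28), 1.54 for OAS1Y (1.36 to 1.75) and 1.78 for OAS2 (0.920 to 3.62), so that of OAS2 could not be told from 1 at this depth. For the 8 h library the fold was 1.93 for OAS1X (1.61 to 2.32), 1.73 for OAS1Y (1.48 to 2.02) and 2.97 for OAS2 (1.40 to 6.46).

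From 4 h to 8 h all 3 genes fell, when 0.557% of the genes tested did. OAS1X at 8 h was 0.278 of its 4 h level (0.241 to 0.320) and OAS1Y 0.151 of it (0.133 to 0.170). OAS2 was 0.190 of its 4 h level (0.110 to 0.306). The intervals of OAS1X and OAS1Y do not overlap. The rise and the fall of a gene share its 4 h value. The class make-up moved with time as well. The CD14 gate held 10.2% of the cells without LPS and 2.04% at 4 h. With every library given the class shares of the no LPS library, the log2 ratios at 4 h were 2.45, 3.38 and 2.21 for OAS1X, OAS1Y and OAS2.

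**Figure D1:**
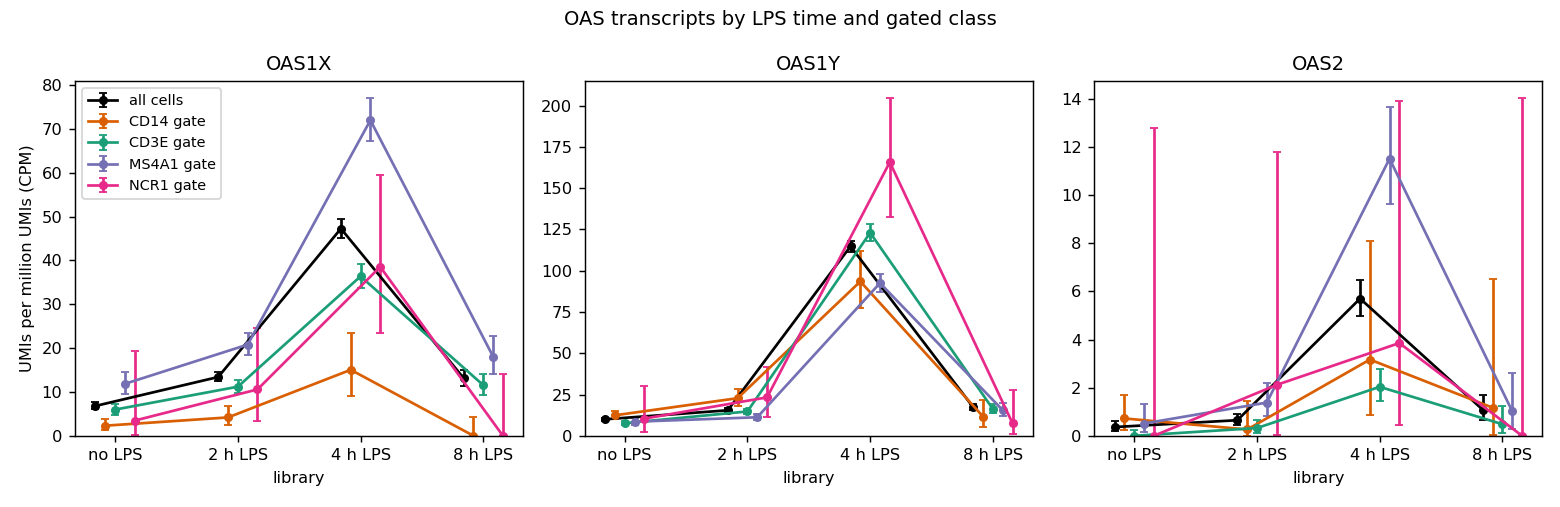
Levels of OAS1X, OAS1Y and OAS2 in CPM (vertical axes start at 0 and differ between panels) in the 4 scRNA-seq libraries, for all cells and for the 4 gated classes. Points are the summed UMIs of 1 library and bars are 95% Poisson intervals. OAS1X and OAS1Y are highest at 4 h in each class, and OAS2 over all cells and in the CD3E and MS4A1 gates. In the CD14 and NCR1 gates OAS2 was too rare for a direction. At 4 h OAS1X and OAS2 are highest in the MS4A1 gate (72.0 and 11.5 CPM) and OAS1Y in the NCR1 gate (166 CPM).

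OAS1X and OAS1Y rose at 4 h in each gate, and OAS2 in the CD3E and MS4A1 gates, but the order of the classes differed between the genes. OAS1X was highest in MS4A1-gated cells at 4 h, with 72.0 CPM (67.2 to 77.1). It had 38.5 CPM in NCR1-gated cells (23.5 to 59.5) and 36.4 in CD3E-gated cells (33.8 to 39.1), which overlap, and 15.1 in CD14-gated cells (9.06 to 23.5). OAS1Y had another order, with 166 CPM in NCR1-gated cells (133 to 205) and 123 in CD3E-gated cells (118 to 128). Of the 86 OAS1Y UMIs in NCR1-gated cells, 62.8% were in 10 cells, so the order of these gates is uncertain. CD14-gated and MS4A1-gated cells had nearly equal levels of OAS1Y, 93.5 CPM (77.4 to 112) and 92.5 CPM (87.0 to 98.2). Of the 118 OAS1Y UMIs in CD14-gated cells, 71.2% were in 17 cells. OAS2 was highest in MS4A1-gated cells with 11.5 CPM (9.64 to 13.7) and had 2.03 CPM in CD3E-gated cells (1.45 to 2.77). In the CD14 and NCR1 gates OAS2 rested on 4 and 2 UMIs at 4 h.

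MS4A1, also known as CD20, marks B cells. In MS4A1-gated cells OAS1X had 11.9, 20.8, 72.0 and 18.1 CPM in order of time, and OAS1Y had 8.54, 11.2, 92.5 and 15.5 CPM. OAS2 had 0.510, 1.38, 11.5 and 1.02 CPM there, from 4, 17, 132 and 4 UMIs. The folds at 4 h were 6.07 for OAS1X (4.90 to 7.61), 10.8 for OAS1Y (8.46 to 14.1) and 22.6 for OAS2 (8.62 to 84.2). All 3 were called, beside 2.56% of the genes tested in this gate. MS4A1-gated cells held 28.5% of the library's UMIs at 4 h but 57.6% of its OAS2 UMIs and 43.5% of its OAS1X UMIs, against 23.0% of its OAS1Y UMIs.

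CD3E codes for a chain of the T cell receptor complex. In CD3E-gated cells OAS1X had 5.98, 11.2, 36.4 and 11.5 CPM in order of time. OAS1Y had 7.62, 14.7, 123 and 16.2 CPM. OAS2 had 0 of 15228490 UMIs without LPS, which allows a level of up to 0.197 CPM by the limit of 3 UMIs used for every count of 0, and then 7, 40 and 4 UMIs. The 4 h folds were 6.09 for OAS1X (4.89 to 7.66) and 16.1 for OAS1Y (13.4 to 19.6), and OAS2 was at least 10.3-fold higher, taking 3 UMIs as the floor of the no LPS sum. All 3 were called, beside 1.08% of the genes tested. The fold of OAS1X was thus nearly the same in CD3E-gated and MS4A1-gated cells, while the interval of OAS1Y in CD3E-gated cells overlapped that in MS4A1-gated cells only from 13.4 to 14.1.

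The smaller differences of OAS1X and OAS1Y at 2 h and 8 h were also seen in the CD3E and MS4A1 gates. The exception was OAS1Y at 2 h in the MS4A1 gate. OAS2 had 4 UMIs at 8 h in each of these gates, against 0 in CD3E-gated and 4 in MS4A1-gated cells without LPS. Of the 18 OAS2 UMIs over all cells at 8 h, 38.9% were in cells with no gate marker, which held 8.07% of the library's UMIs. At 2 h the fold of OAS1X was 1.87 in CD3E-gated cells (1.47 to 2.41) and 1.75 in MS4A1-gated cells (1.38 to 2.25). The fold of OAS1Y was 1.93 in CD3E-gated cells (1.56 to 2.41), and in MS4A1-gated cells it was 1.31 with an interval that held 1 (0.974 to 1.79). From 4 h to 8 h OAS1Y went to 0.132 of its level in CD3E-gated cells and to 0.168 of it in MS4A1-gated cells. Both paralogs were still above their no LPS level at 8 h in these gates, with folds of 1.93 and 2.13 for OAS1X and OAS1Y in CD3E-gated cells and of 1.52 and 1.82 in MS4A1-gated cells. Each of these 4 intervals lay above 1. The other gates did not show this at 8 h, where the fold of OAS1Y was 0.941 in CD14-gated cells (0.436 to 1.82) and NCR1-gated cells had 2 UMIs of OAS1Y against 3 without LPS, with 0 UMIs of OAS1X in both gates.

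Set against MS4A1-gated cells of the same library, CD3E-gated cells had 50.4% of the OAS1X level without LPS and 50.5% at 4 h. For OAS1Y this was 89.2% without LPS (interval of the ratio 0.655 to 1.22) and 133% at 4 h (1.24 to 1.43). For OAS2 it was 17.7% at 4 h (0.121 to 0.253). RNA released from other cells gives the same mix of transcripts to every class, and CD79A, which B cells make, was at 5.18% of its MS4A1-gate level in CD3E-gated cells at 4 h. The 5 B cell markers together had 123 CPM in CD3E-gated and 884 CPM in MS4A1-gated cells, a smaller gap than that of CD79A alone. The part of released RNA in the OAS2 level of CD3E-gated cells was not tested.

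CD14 is the LPS co-receptor that marks monocytes. In CD14-gated cells OAS1Y had 12.4, 22.8, 93.5 and 11.7 CPM in order of time, from 86, 87, 118 and 10 UMIs. OAS1X was much rarer there, with 2.31, 4.19 and 15.1 CPM at the first 3 points. At 8 h it had 0 of 856677 UMIs, which allows up to 3.50 CPM, so that no fall below the no LPS level can be read from it. The 4 h folds were 7.54 for OAS1Y (5.66 to 10.1) and 6.52 for OAS1X (3.18 to 13.6). OAS1X and OAS1Y were called in this gate, beside 6.61% of the genes tested, and OAS2 did not reach 20 UMIs. The cells of this gate changed with time in other ways. Their median depth was 8293 UMIs without LPS and 1550.5 at 8 h. Their 6 monocyte markers summed to 2687 CPM without LPS and 1130 at 4 h, all 6 being detected in each library. Their 4 granulocyte markers summed to 45.3 and 232 CPM at the same points, also all detected. The part of these changes in the OAS values was not tested.

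NCR1 is an activating receptor of NK cells. In NCR1-gated cells OAS1Y had 3, 11, 86 and 2 UMIs in order of time, and OAS1X had 1, 5, 20 and 0. At 4 h the fold was 15.9 for OAS1Y (5.27 to 78.8) and 11.1 for OAS1X (1.78 to 461). OAS1X and OAS1Y were called, beside 5.46% of the genes tested in this gate, and the wide intervals reflect the 58 cells without LPS.

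The make-up of the OAS1 transcripts differed between the classes and moved with time. Of the UMIs of OAS1X and OAS1Y together, OAS1Y held 59.5% over all cells without LPS (55.6 to 63.3) and 53.5% after 2 h (50.8 to 56.2). It held 70.8% after 4 h (69.7 to 71.9) and 56.8% after 8 h (52.4 to 61.2). This share needs no scaling between libraries. The 4 h interval lies above the others, which lie close to each other.

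Within CD14-gated cells the share was high and nearly level, at 84.3%, 84.5% and 86.1% at the first 3 points, and it was 10 of 10 UMIs at the last. The intervals at the first 3 points were 75.8 to 90.8, 76.0 to 90.9 and 79.2 to 91.4. They rest on 16, 16 and 19 OAS1X UMIs, so a shift of several points could not be seen. Of the OAS1Y UMIs of this gate, 55.8%, 51.7% and 71.2% were in 9, 10 and 17 cells at these points, so the intervals are too narrow. In CD3E-gated cells it was 56.0%, 56.8%, 77.2% and 58.4% in order of time, with an interval of 75.7 to 78.6 at 4 h. MS4A1-gated cells had the lowest share at every point, with 41.9%, 35.0%, 56.2% and 46.2%. Their intervals were 34.1 to 49.9 without LPS, 30.3 to 40.0 for the 2 h library and 54.0 to 58.5 for the 4 h library. In NCR1-gated cells it was 81.1% at 4 h (72.4 to 88.1). OAS1X was therefore the more abundant of the pair in MS4A1-gated cells without LPS and at 2 h, which was seen in no other gate. At 8 h the MS4A1 interval held 50%, as did the CD3E interval without LPS. At 4 h OAS1Y was the more abundant in every gate.

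**Figure D2:**
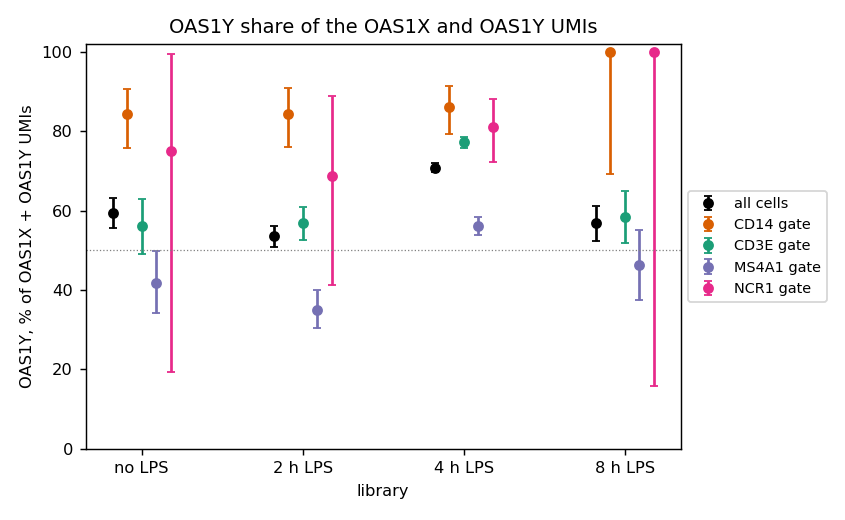
Share of OAS1Y in the summed UMIs of OAS1X and OAS1Y, in percent, by library for all cells and for each gate. Bars are exact binomial intervals. The CD14 gate lies at 84.3% to 86.1% up to 4 h, and the CD3E and MS4A1 gates are highest at 4 h, at 77.2% and 56.2%.

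OAS1Z, the remaining OAS1 copy, was closer to OAS1X than to OAS1Y in the size of its change. Its level over all cells was 9.27, 14.9, 43.4 and 16.6 CPM in order of time, and its 4 h fold was 4.68 (4.17 to 5.25), below that of OAS1X. Of the UMIs of OAS1X and OAS1Z together, OAS1Z held 57.7%, 52.7%, 47.8% and 55.8% in order of time. At 4 h this share was 46.6% in CD3E-gated, 47.7% in MS4A1-gated and 55.8% in CD14-gated cells, where that interval is 39.9 to 70.9. The 3 copies together made 26.1 CPM without LPS and 205 CPM at 4 h. OAS1Y was 38.3% of that sum without LPS and 55.9% at 4 h.

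In single cells the paralogs differed in how their UMIs were spread. At 4 h OAS1X had a UMI in 1408 of 7387 cells, 19.1% (18.2 to 20.0), and OAS1Y in 1822 cells, 24.7% (23.7 to 25.7). Without LPS the shares were 3.08% and 3.34%. OAS2 had a UMI in 0.166% of cells without LPS and in 2.73% at 4 h. Cells were also cut down at random to 1000 UMIs, with shallower cells left out. That kept 7313 cells without LPS and 7103 at 4 h. The 4 h shares were then 4.46% for OAS1X, 9.22% for OAS1Y and 0.451% for OAS2, against 0.615%, 0.889% and 0.0273% without LPS.

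A cell with OAS1X at 4 h held 1.35 UMIs of it on average and at most 7. A cell with OAS1Y held 2.53 on average and at most 19. Cells with at least 3 UMIs numbered 99 for OAS1X and 577 for OAS1Y, and they held 17.5% of all OAS1X UMIs and 65.3% of all OAS1Y UMIs. Cells with 6 or more numbered 2 and 178. OAS1Z resembled OAS1X, with 18.6% of its UMIs in cells with at least 3. EIF2AK2, the double-stranded RNA-dependent kinase PKR, had about as many UMIs as OAS1Y at 4 h (4798 against 4610), but 38.0% of them were in cells with at least 3. RSAD2, which codes for the antiviral enzyme viperin, had 5020 UMIs and 68.2% of them in such cells, close to OAS1Y. The cells of 4 animals are mixed in each library, and differences between animals cannot be told apart from differences between cells of an animal.

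**Figure D3:**
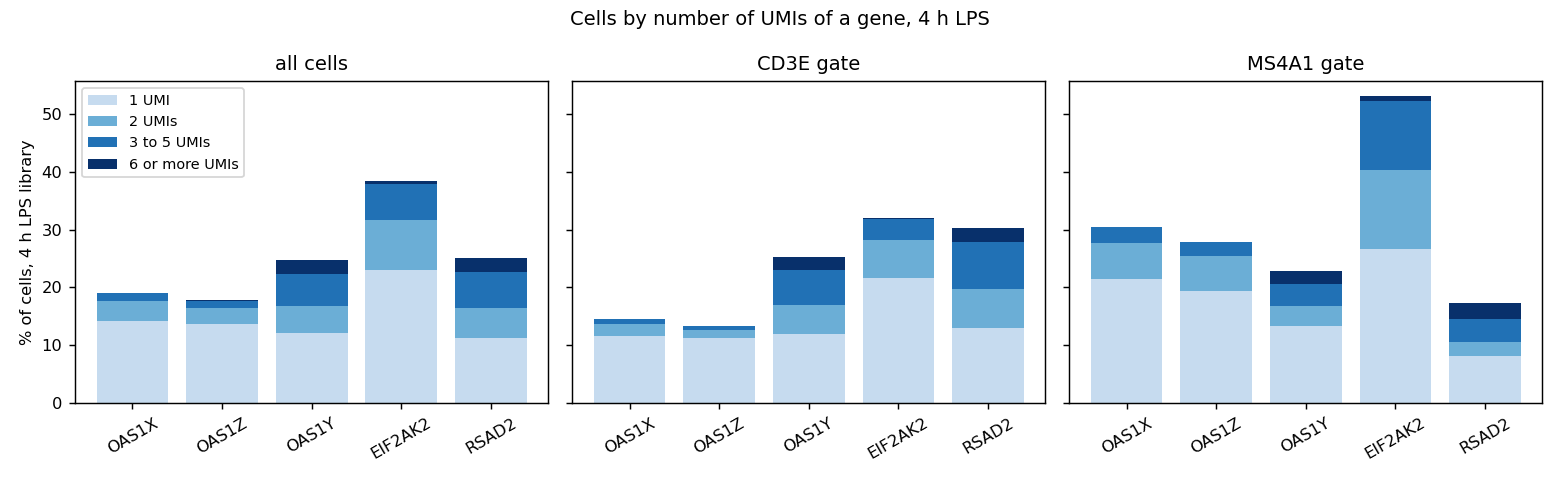
Percent of cells of the 4 h LPS library with 1, 2, 3 to 5 and 6 or more UMIs (stacked bars starting at 0) of OAS1X, OAS1Z, OAS1Y, EIF2AK2 and RSAD2, for all cells and the CD3E and MS4A1 gates. OAS1Y and RSAD2 have many cells with 6 or more UMIs (178 and 183 of all cells), and OAS1X and OAS1Z have 2 each.

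In MS4A1-gated cells at 4 h the spread turned the order of the paralogs around. OAS1X was detected in more cells, 30.5% (28.4 to 32.6) against 22.9% for OAS1Y (21.0 to 24.9), but OAS1Y had more UMIs, 1060 against 825. There, 116 cells had at least 3 UMIs of OAS1Y and 52 had at least 3 of OAS1X. In CD3E-gated cells OAS1Y was ahead on both measures, with 25.2% of cells against 14.5%. As a guide to the background, CD79A had a UMI in 3.58% of CD3E-gated cells at 4 h and LYZ, a monocyte transcript, in 0.104%.

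Cells with one OAS transcript also held the others more often than their shares alone would give. Among 7103 cells thinned to 1000 UMIs at 4 h, 54 had both OAS1X and OAS1Y where 29.2 would be had if the 2 were unrelated. In CD3E-gated cells the numbers were 24 and 11.0, and in MS4A1-gated cells 19 and 9.32. ISG15, a ubiquitin-like protein induced by interferon, had a UMI in 79.4% of the cells with OAS1Y and in 45.8% of those without. It had a UMI in 77.0% of the cells with OAS1X, and 31 of the 32 cells with OAS2 had ISG15.

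The cells of the 4 h library were also sorted by their own number of OAS1Y UMIs, and the other transcripts were summed in each group with OAS1Y left out of the total. In CD3E-gated cells with 0, 1 to 2, 3 to 5 and 6 or more UMIs of OAS1Y (2885, 654, 231 and 87 cells), OAS1X was at 21.5, 65.0, 100 and 95.1 CPM. OAS2 was at 0.909, 2.52, 9.79 and 10.8 CPM in the same groups. ISG15 was at 828, 2369, 4500 and 8043 CPM, and MX2, an antiviral GTPase, at 40.0, 118, 216 and 472 CPM. The median depth of these groups was 4729 to 5230 UMIs.

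In MS4A1-gated cells the starting levels were higher, and the rises from the first group to the last were smaller relative to them. In groups of 1460, 318, 73 and 43 cells, OAS1X was at 54.1, 100, 158 and 170 CPM and OAS2 at 8.90, 13.2, 33.8 and 26.1 CPM. ISG15 was at 4389, 6782, 9335 and 11949 CPM. Here depth moved with the groups, with medians of 4659.5, 6007, 7357 and 8665 UMIs, and its part in the values was not tested. MS4A1-gated cells without any OAS1Y UMI thus had about as much ISG15 as CD3E-gated cells with 3 to 5.

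**Figure D4:**
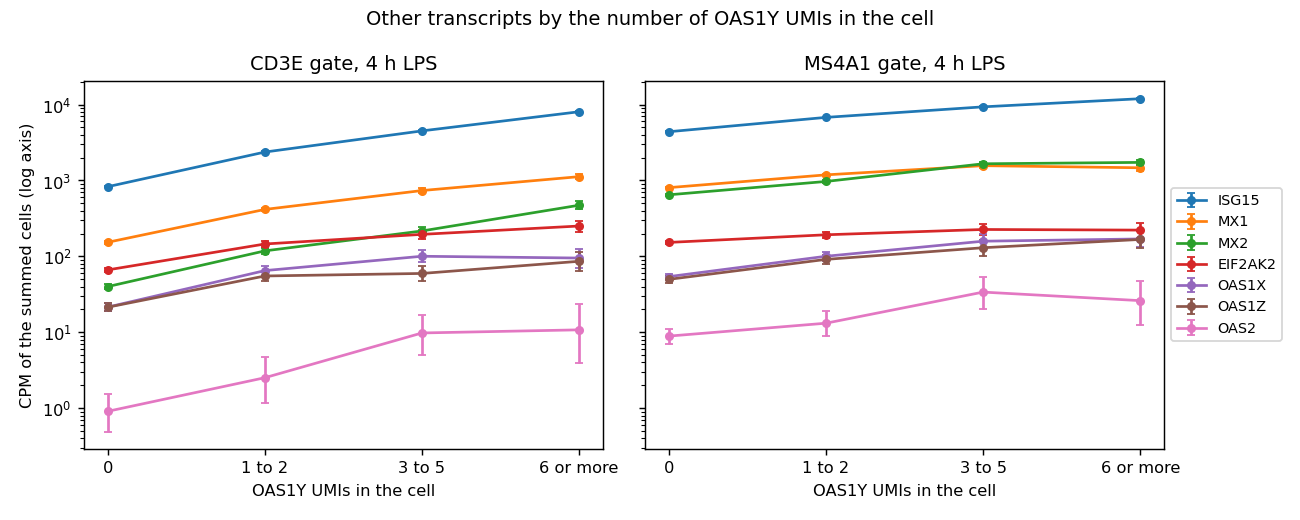
Levels of 7 transcripts in CPM (log axis) in cells of the 4 h LPS library grouped by their number of OAS1Y UMIs, for the CD3E and MS4A1 gates. Points are sums over the cells of a group and bars are 95% Poisson intervals. ISG15 goes from 828 to 8043 CPM in the CD3E gate and from 4389 to 11949 CPM in the MS4A1 gate, and OAS1X from 21.5 to 95.1 CPM and from 54.1 to 170 CPM.

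The other genes of the pathway were given from lists, described by counts and medians. Over all cells at 4 h, the median over all genes tested was 0.02, and 1.28% of them rose. Of 6 other genes tested from the list of the oligoadenylate pathway and related enzymes, 2 rose at 4 h and the median log2 ratio was 0.70. They were OAS1Z, with 2.11, and CGAS, with 1.55, the related enzyme that senses DNA, which went from 3.22 to 11.3 CPM. PDE12, a phosphodiesterase that degrades oligoadenylates, had 8.54 CPM without LPS and 15.6 at 4 h. ABCE1, an ATP-binding protein that also acts in ribosome recycling, had 34.4 and 52.7 CPM, and OASL, an OAS-like protein, had 0.909 and 1.57 CPM. Each fold interval of PDE12, ABCE1 and OASL at 4 h lay above 1, and each log2 ratio was between 0.43 and 0.80, below the ratios of OAS1X, OAS1Y and OAS2.

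Among 14 genes of interferon receptors and signalling, 3 rose at 4 h, beside 1.28% of all genes tested, and the median was 0.28. They were IRF7, a transcription factor of the interferon response, with 58.4 and 237 CPM, USP18, which limits receptor signalling, with 62.2 and 200.2 CPM, and STAT2, with 20.2 and 44.2 CPM. IRF9, a transcription factor that acts with STAT2, had 130.3 CPM without LPS and 195 at 4 h. The receptor genes IFNAR1 and IFNAR2 had 69.7 and 60.3 CPM without LPS and 59.5 and 73.4 CPM at 4 h.

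Of the interferon genes, IFNB3, IFNE, IFNK and IFNL3 had 0 UMIs in all 4 libraries, which allows up to 0.0747 CPM in the 4 h library. The list also held IFNB1, IFNB2, IFNA1 and IFNW1. These 4 were not listed under these names, so their transcripts could not be looked at. IFNG, the type II interferon, had 0.909, 8.71, 4.03 and 1.02 CPM in order of time, so that its highest level came before that of the OAS genes.

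The list of other interferon-stimulated genes had 21 genes tested. All 21 rose at 4 h with a median of 2.32, when 1.28% of all genes tested did. The 3 OAS genes, at 2.30 to 3.40, lay within the range of this list, which ran from 1.12 for IFI27 to 4.17 for ISG15. At 2 h 6 of the 21 rose, with a median of 0.51, when 0.938% of all genes tested did. ISG15 already had 1202 CPM at 2 h against 163 without LPS and 2934 at 4 h. MX2 was closer to the OAS genes in time, with 32.6, 43.1, 325 and 60.6 CPM in order of time. At 8 h against no LPS 1 of 21 was called as risen, when 0.492% of all genes tested rose. The median was 0.64 beside 0.73 for the 3 OAS genes and 0.10 over all genes tested.

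The 8 NF-kB targets had another course over all cells. At 2 h 4 of them rose, when 0.938% of all genes tested did. Among them were CCL20, a chemokine, from 52.9 to 591 CPM, and PTGS2, the inducible cyclooxygenase, from 47.9 to 279 CPM. At 4 h over all cells none was called as risen and 2 had fallen, beside 4.26% of all genes tested. These were IL6, with 268 CPM without LPS and 75.8 at 4 h, and IL1B, with 2132 and 906 CPM, cytokines of the acute inflammatory response. Within the gates the picture was different. In CD14-gated cells 5 of the 8 rose at 4 h, beside 6.61% of the genes tested in this gate, and none fell. There IL6 had 1219 CPM without LPS and 1209 at 4 h, and IL1B 8920 and 14852 CPM. In MS4A1-gated cells 4 of the 8 rose, beside 2.56% of the genes tested in this gate, and none fell. In CD3E-gated cells 2 rose, and IL6 fell from 5.65 to 1.27 CPM. Of the genes tested in this gate, 1.08% rose and 0.713% fell. The CD14 gate, where IL6 and IL1B had their highest levels of the 4 gates, held a smaller share of the cells at 4 h, as given above. The part of this in the levels over all cells was not tested.

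The genes most like each member were taken over the 16 sums of 4 gates and 4 libraries, as Pearson r of log2(CPM + 1) among 9634 genes with at least 200 UMIs. The sums of a library share its treatment and the gates differ in depth, so r is a description. OAS1X was most like OAS1Z (r = 0.882), SMU1, TIMM10B, DOHH and ENSBTAG00000022489. OAS1Y was most like CMPK2 (r = 0.865), a mitochondrial nucleotide kinase induced by interferon, and then OAS2, SP140L, ZNFX1 and HERC6. OAS2 was most like DHX58 (r = 0.818), an RNA sensor, and then OAS1Y, ISG15, TDRD7 and IFIT3. OAS1X and OAS1Y had r = 0.679 with each other. The small NCR1 gate weighed on these lists. Over the 12 sums without it, 9603 genes had at least 200 UMIs. Among them, r between OAS1X and OAS1Z was 0.989, and between OAS1X and OAS1Y 0.587. The genes after OAS1Z were then ENSBTAG00000022489, PNPT1, IFIT1 and DDX58. For OAS1Y they were SP140L, TDRD7, IFIT3, OAS2 and VCPIP1, and for OAS2 TDRD7, DHX58, IFIT5, PARP14 and IFIT3. CMPK2 fell just short of 200 UMIs without the NCR1 gate, so it was not compared with OAS1Y there.

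The scATAC-seq tables count transposase cuts in open chromatin by gene and nucleus. Over all barcodes at 4 h against no LPS, the log2 ratios were 1.06 for OAS1X and 0.65 for OAS2. These were smaller than in RNA (2.63 and 2.30). At 2 h that of OAS2 was larger than in RNA, 0.61 against 0.27, and both fold intervals held 1. The rule that assigned counts to genes is not given in the sources used here. Counts mostly came in pairs (88.7% to 93.8% of values above 0 were even), so intervals were computed on halved counts. The gates could not be applied, since CD3E was listed in no library, so values are over all barcodes. The no LPS library had 975012 counts against 11957904 to 30250143 in the others, and a median of 213 counts per barcode against 2250 to 5205. The libraries listed 11658, 13821, 13255 and 11573 genes in order of time, so their CPM totals cover different sets of genes.

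Scaled to CPM of all listed genes, OAS1X had 16.4, 29.2, 35.4 and 16.1 CPM in order of time, the first with an interval of 7.08 to 32.3. OAS1Y was not listed without LPS and then had 11.6, 17.2 and 5.69 CPM. OAS2 had 35.9, 55.3, 57.1 and 46.7 CPM, the first with an interval of 20.3 to 55.8. OAS2, the rarest transcript, thus had the most counts of the 3 in the chromatin assay, while OAS1Y, the most abundant transcript at 4 h, had the fewest. How gene size and the counting rule bear on this order was not tested.

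At 4 h against 2 h the fold was 1.21 for OAS1X (1.06 to 1.39), 1.48 for OAS1Y (1.21 to 1.80) and 1.03 for OAS2 (0.934 to 1.14). At 8 h OAS1X was 0.456 of its 4 h level (0.360 to 0.566), OAS1Y 0.331 of it (0.224 to 0.477) and OAS2 0.819 (0.710 to 0.939). OAS1X and OAS1Y fell by the rule used for RNA, when 5.65% of the genes tested did, and OAS2 did not. Against no LPS at 4 h, OAS1X had a fold of 2.16 (1.09 to 5.03) and OAS2 of 1.59 (1.02 to 2.82). Only OAS1X of these 2 was called, beside 8.23% of the genes tested, and it rested on 16 counts without LPS. Among barcodes with at least 500 counts, 352 of 3121 without LPS, OAS2 also passed the threshold, with a log2 ratio of 1.89 in place of 0.65.

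**Figure D5:**
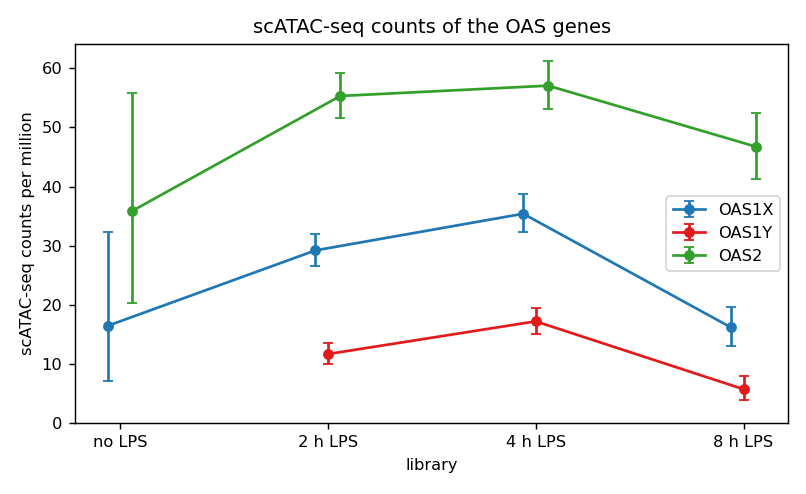
scATAC-seq levels in CPM of OAS1X, OAS1Y and OAS2 over all barcodes of each library, with 95% Poisson intervals on halved counts (vertical axis from 0). OAS1X and OAS1Y are highest at 4 h (35.4 and 17.2) and lower at 8 h (16.1 and 5.69), OAS2 stays between 46.7 and 57.1 with LPS, and OAS1Y has no point without LPS.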

How the data were processed

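Single-cell RNA and ATAC libraries were made with 10x Genomics kits from 4 parts of pooled blood, 1 library of each assay per treatment. The authors ran Cell Ranger with the ARS-UCD1.2 assembly and deposited tables of genes by barcodes, with UMI counts for RNA and counts by gene for scATAC-seq, neither normalized. Deposited RNA totals were 30902952 to 63770426 UMIs per library. Cells were kept with 200 to 3000 genes, 200 or more UMIs and less than 20% of UMIs from mitochondrial genes. No doublet caller was run, and cells with more than 1 gate marker entered only the sums over all cells. For each library and gate UMIs were summed and divided by the total to give CPM, and log2 ratios were taken after adding 1 CPM. Levels have exact Poisson intervals, shares exact Clopper-Pearson intervals and folds exact conditional binomial intervals (Python 3.11.15, numpy 2.4.6, scipy 1.17.1). Thinning drew 1000 UMIs per cell without replacement and left out shallower cells. With 1 library per treatment no p-value was computed. The ratio, call and thinning steps were tested on simulated data.

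The members, lists and gates were chosen with earlier results of these data known. Genes named are the members, the genes of the lists, and for each member the 5 genes of highest r. Some list genes are counted but not reported here by name. EIF2AK2 and RSAD2 were picked from the list for the comparison of UMIs per cell after their levels were seen, and the groups of cells by OAS1Y UMIs were also chosen after the data were seen. Alternatives were scaling by edgeR 4.0.16 (TMM) and DESeq2 1.42.0 size factors in R 4.3.3, other cell limits, gates, weights and pseudocounts, and thinning.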

Additional observations from a re-analysis of the deposited data

Results flagged for a closer look

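Cells with over 3000 genes, left out of the report, also held more OAS transcripts with LPS than without in 6 of the 9 comparisons of a gene and a time, where the interval of the fold lay above 1. There were 619, 511, 542 and 419 such cells in order of time. In them OAS1X had a fold against no LPS of 2.00 at 2 h (1.56 to 2.57) and 7.54 at 4 h (6.13 to 9.34). Its fold in the 8 h library was 2.03 (1.58 to 2.62). OAS1Y had a fold of 1.68 at 2 h (1.40 to 2.01) and 8.44 at 4 h (7.31 to 9.78), and at 8 h its interval held 1 (fold 1.09, 0.885 to 1.34). OAS2 had a fold of 13.2 at 4 h (5.75 to 37.3), and its intervals at 2 h and 8 h, from 8 UMIs each against 6, also held 1. OAS1Y was at 92.6 CPM in these cells at 4 h and at 115 CPM in the cells kept.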

How the results depend on the processing

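No paired analysis was possible because each treatment had 1 library of each assay. Of 159 values recomputed under the alternatives, 128 stayed within the counting interval of the reported value, 31 moved and no called value changed its direction. Of the values not called, 4 log2 ratios lay on the other side of 0 under 1 alternative each, 2 of them among the moved values (OAS2 at 2 h, reported as 0.27, and OAS1Y in the NCR1 gate at 2 h, reported as 1.09 from under 20 UMIs). All 21 values at 4 h over all cells stayed at or above 1. Scaling by TMM or DESeq2 size factors moved none. With every cell weighted equally, the log2 ratios were 2.31 at 4 h and 0.46 at 8 h for OAS1X, 0.32, 2.91 and 0.45 at 2 h, 4 h and 8 h for OAS1Y, and -0.36 at 2 h and 1.57 at 4 h for OAS2. A pseudocount of 0.1 CPM gave 3.65 at 4 h and 1.35 at 8 h for OAS2, by its construction larger for a rare transcript. Without an upper limit on genes OAS1Y was at 0.48 at 8 h over all cells, also 0.48 with every deposited barcode, and OAS1X at -2.01 in the CD14 gate at 8 h, where 0 UMIs were counted within the limit. A gate of at least 2 UMIs gave -1.36 for OAS1Y in NCR1-gated cells at 2 h. In scATAC-seq, barcodes with at least 500 counts, 352 of 3121 without LPS, gave 1.84, 1.89 and 1.60 for OAS2 at 2 h, 4 h and 8 h, and the ratios of OAS1Y to no LPS were not run as it has no value there. Thinning to 1000 UMIs lowers shares of cells by its construction. In order of time they became 0.615%, 1.55%, 4.46% and 1.42% for OAS1X, 0.889%, 1.56%, 9.22% and 1.98% for OAS1Y, and 0.0273%, 0.0530%, 0.451% and 0.0659% for OAS2. The OAS1Y share of the OAS1X and OAS1Y UMIs became 63.7% without LPS, 72.0% at 4 h and 62.3% at 8 h. For the other moved values the cause was not tested. Without replicate libraries the intervals understate the error between libraries, and OAS2 in the CD14 and NCR1 gates was too rare for a direction.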
